A study of Homo sapiens with 8 samples.

Results

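The acute phase genes of the liver examined here were SAA1, SAA2, SAA4, HP, ORM1, ORM2, HAMP, LBP, CRP and SOCS3. They were chosen by symbol, with earlier results of these data known. Of the 10, 8 were among the 17561 genes of the deposited RNA-seq table, while SAA1 and CRP were not analysed here. The table comes from HepG2 cells, a human liver carcinoma cell line, collected 48 h after transient transfection. One group of 4 libraries received pGRHL2, a plasmid in which an EEF1A1 promoter drives a flag-tagged cDNA of the epithelial transcription factor GRHL2 together with EGFP, and the other group of 4 libraries received the plasmid pcDNA3. The 2 plasmids were thus not identical outside the GRHL2 insert. All 8 cultures were grown in William E medium containing 50 nM dexamethasone, a synthetic glucocorticoid, together with 20 mU/ml insulin, 2 mM glutamine, antibiotics and 10% serum. The labels name no inflammatory cytokine among the treatments.

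Acute phase proteins are plasma proteins that hepatocytes release in larger amounts during inflammation. Interleukin-6 acts through its receptor, the shared subunit gp130 and JAK kinases to activate the transcription factor STAT3, interleukin-1 acts through NF-kB, and glucocorticoids strengthen both responses. SOCS3 is a STAT3 target that encodes an inhibitor of gp130 signalling, and the iron-regulating hormone hepcidin, encoded by HAMP, responds to STAT3 as well as to bone morphogenetic proteins (BMP) through SMAD factors. HepG2 cells have long been used to study these responses.

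Values are given on a log2 scale per transcript length. In each gene, the mean of a pGRHL2 library and the pcDNA3 library of the same number was identical for all 4 numbers, so that a pGRHL2 library above its group mean has a pcDNA3 partner below its own by the same amount. The libraries were therefore read as 4 pairs, a log2 FC (pGRHL2/pcDNA3) is the mean of 4 pair differences and is given with their SD, and 2 groups do not overlap exactly when all 4 pairs differ in the same direction. GRHL2 itself ranged from 16.22 to 16.87 in pGRHL2 libraries and from 6.61 to 7.25 in pcDNA3 libraries, as labelled. All 6 hepatocyte markers looked for (ALB, AFP, APOA1, APOB, HNF4A and TTR) were in the table, at mean levels from 9.83 to 17.1. Of the macrophage markers 1 of 4 was in the table, CD163 at a mean of -0.66. Of the endothelial markers 2 of 4 were, PECAM1 at 5.43 and VWF at 1.91. Of the fibroblast or stellate markers 3 of 4 were, ACTA2 at 8.14, COL1A1 at 5.82 and PDGFRB at 5.08. None of these markers was called by limma. Because cells were measured in bulk, a change in all cells and a larger change in the transfected cells alone cannot be told apart.

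Over the 8 acute phase genes, 0 were called higher in pGRHL2 at a limma adjusted p under 0.05, compared with 1.69% of all genes, and 0 were called lower, compared with 0.501% of all genes. An unadjusted limma p under 0.05 was found for 4 of the 8 (HP, SAA2, ORM1 and SOCS3), compared with 16.0% of all genes. Since the 8 were chosen with earlier results of these data known, this share is not a test of acute phase genes. The groups did not overlap in 3 of the 8, with HP and SAA2 higher and SOCS3 lower in pGRHL2, compared with 24.0% of all genes. The median log2 FC of the 8 genes was 0.02, while that of all genes was 0.0017. With 4 pairs the exact two-sided sign-flip test cannot go below p = 0.125, a value reached by HP, SAA2 and SOCS3. Measured differences were thus small, and their 95% confidence intervals reached at most 0.56 on the log2 scale in either direction. Rlog values, described below, can understate differences where reads are few. The intervals of the weakest genes (SAA4, SAA2 and LBP) are therefore not a bound on their changes.

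**Figure D1:**
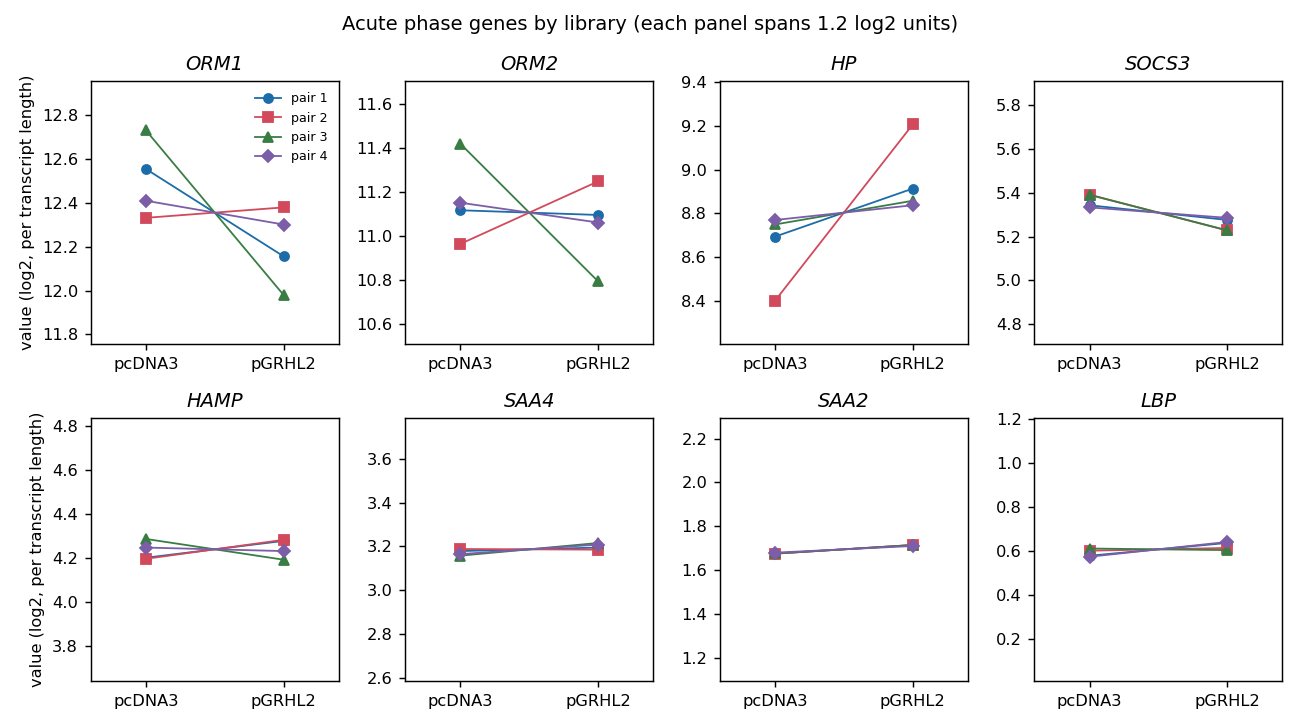
Value of each acute phase gene (log2, per transcript length) in the 4 pcDNA3 and 4 pGRHL2 libraries, with a line joining the libraries of a pair and the same span on every vertical axis. HP is higher in pGRHL2 in all 4 pairs and most so in pair 2, ORM1 and ORM2 have pairs of both directions, and the SAA2 lines lie on top of each other.

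The 8 genes covered a wide range of levels. In order from highest to lowest per transcript length, the mean pcDNA3 level fell from ORM1 to ORM2, HP, SOCS3, HAMP, SAA4, SAA2 and LBP. Each of these 7 steps held in 8 of 8 libraries, the smallest gap in any library being 0.95, between SOCS3 and HAMP. Because pair means are identical in each gene, the 8 libraries are not 8 separate readings of this order. Among all genes of the table, the level of ORM1 had a percentile of 98.7, ORM2 of 95.1, HP of 73.5, SOCS3 of 40.2 and HAMP of 33.4. The other secreted proteins were weakly represented, with percentiles of 26.5 for SAA4, 15.0 for SAA2 and 7.37 for LBP. Rlog values are shrunk towards the mean of a gene when reads are few, so that differences of these weakly represented genes may be understated. Read numbers were not used here, and the extent of this was not tested.

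**Figure D2:**
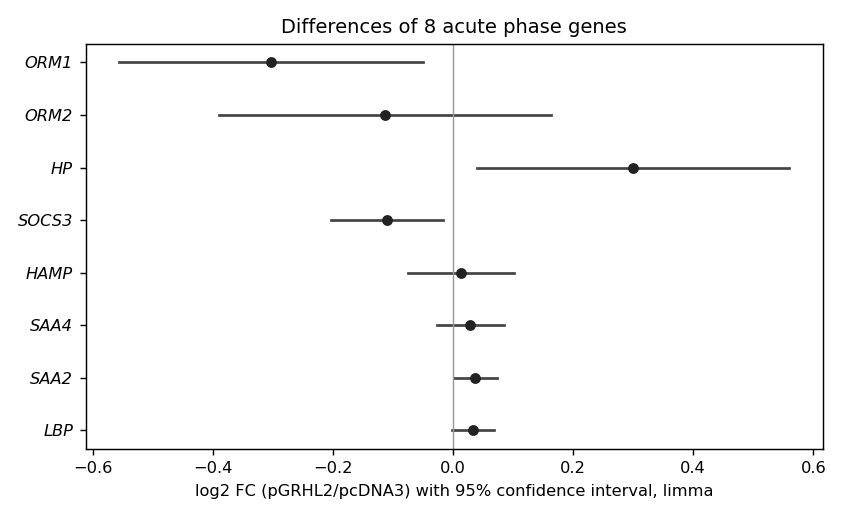
Log2 FC (pGRHL2/pcDNA3) of the 8 acute phase genes in order of level, points showing the mean of 4 pairs and lines the 95% confidence interval of the limma fit. The intervals of HP, ORM1, SOCS3 and SAA2 leave out 0, yet 0 of the 8 genes had an adjusted p under 0.05 over 17561 genes.

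Haptoglobin, the plasma protein that binds free hemoglobin, is encoded by HP on chromosome 16 from 72054505 to 72061055 (hg38, plus strand). In pGRHL2 libraries 1 to 4, HP was 8.91, 9.21, 8.86 and 8.84, while in pcDNA3 libraries 1 to 4 it was 8.69, 8.40, 8.75 and 8.77. Every pGRHL2 library was above every pcDNA3 library, and pair 2 stood apart with a difference of 0.80 when the other pairs differed by 0.22, 0.11 and 0.067. The log2 FC was 0.30 ± 0.34 (SD over 4 pairs), a fold of 1.23, with a 95% confidence interval of 0.040 to 0.56 and an adjusted p by limma of 0.241. Replicate 2 decided the size of this value, since without it the log2 FC of HP was 0.13 with an adjusted p by limma of 0.526 (0.0733 to 0.526 over all settings run). Pair 2 was also the pair in which hepatocyte transcripts were higher in pGRHL2, since 6 of 6 hepatocyte markers were higher there with a median difference of 0.32, compared with 1 of 6 in each of pairs 1, 3 and 4. The part of this shift in the HP value was not tested.

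The haptoglobin-related gene HPR lies next to HP on the same strand. Their coding sequences, of 1218 bases in HP and 1044 in HPR, matched at 995 of 1221 aligned columns. This is 81.49% with gaps counted as differences, so the unequal lengths lower the value. Of all 150-base windows of the main HP transcript, 150 bases being the length of a read, 5.34% were also found in HPR transcripts. One exon stretch of each gene is shown, the most distinct of 26 candidate windows, the least distinct differing at 5 of 90 bases. It is thus a best case among these windows, which came only from internal coding exons of equal length in the 2 genes. Capitals mark the 7 of 90 bases that differ (hg38, plus strand, HP at chr16:72056530-72056619 and HPR at chr16:72074284-72074373).
HP: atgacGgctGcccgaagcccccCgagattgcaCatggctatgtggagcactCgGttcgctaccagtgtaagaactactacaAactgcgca
HPR: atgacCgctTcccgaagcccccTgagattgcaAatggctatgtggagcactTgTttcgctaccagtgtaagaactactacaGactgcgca
HPR was less abundant than HP, with a mean of 6.65, and its pairs differed by 0.11, 0.30, 0.034 and -0.078. Its log2 FC was 0.092 ± 0.16 (SD over 4 pairs) with an adjusted p by limma of 0.562. When the linear values of HP and HPR were summed, the log2 FC of HP went from 0.30 to 0.26 and the adjusted p by limma was 0.267.

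HP was most like the fibrinogen genes across pairs. Among 85 acute phase and related genes with a mean of at least 5, the genes with the smallest root mean square distance to the 4 pair differences of HP were FGB (0.071), FGG (0.11) and FGA (0.11). These genes encode the 3 chains of fibrinogen, the precursor of the fibrin clot and itself an acute phase protein. In pair 2 FGA differed by 0.89, FGB by 0.77 and FGG by 0.84, and in the other pairs the 3 genes differed by -0.078 to 0.19. Log2 FC were 0.27 ± 0.43 for FGA, 0.28 ± 0.33 for FGB and 0.27 ± 0.38 for FGG (SD over 4 pairs), and 0 of the 3 were called by limma. HP thus shared with the fibrinogen genes one large pair difference among 4, a likeness that rests on the same 8 libraries.

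ORM1 and ORM2 encode orosomucoid (alpha-1-acid glycoprotein), a drug-binding plasma protein, and lie in tandem on the plus strand of chromosome 9, from 114323098 to 114326479 and from 114329869 to 114333251. Their coding sequences were 94.86% identical over 603 bases, and 22.11% of the 150-base windows of the main ORM1 transcript were found in ORM2 (22.3% the other way). The stretches below, each within 1 exon, show the least and the most distinct 90 bases among candidate windows. These windows came only from internal coding exons of equal length in the 2 genes. The first is the same in both, at chr9:114323663-114323752 in ORM1 and chr9:114330434-114330523 in ORM2, so that these bases do not tell the genes apart. The second has 17 differing bases, in capitals, at chr9:114324790-114324879 in ORM1 and chr9:114331567-114331656 in ORM2.
ORM1 and ORM2: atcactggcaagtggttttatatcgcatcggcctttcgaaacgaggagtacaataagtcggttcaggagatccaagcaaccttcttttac
ORM1: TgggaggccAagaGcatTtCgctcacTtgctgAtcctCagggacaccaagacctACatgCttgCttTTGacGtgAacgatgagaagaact
ORM2: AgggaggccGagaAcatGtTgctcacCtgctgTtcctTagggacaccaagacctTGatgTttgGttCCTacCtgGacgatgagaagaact
Reads that align equally well to ORM1 and ORM2 cannot be assigned to either. The authors' minimum alignment quality of 10 would drop most such reads from both genes. The separate values therefore rest on the remaining reads and stay uncertain, since the number dropped is unknown.

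In pGRHL2 libraries 1 to 4, ORM1 was 12.16, 12.38, 11.98 and 12.30, while in pcDNA3 libraries 1 to 4 it was 12.55, 12.33, 12.73 and 12.41. The groups overlapped, because ORM1 was lower in pGRHL2 in pairs 1, 3 and 4 and slightly higher in pair 2. The pair differences were -0.40, 0.048, -0.75 and -0.11, which gave a log2 FC of -0.30 ± 0.35 (SD over 4 pairs), a fold of 0.811, with a 95% confidence interval of -0.56 to -0.049 and an adjusted p by limma of 0.224. Pair 3 carried much of this value, since the log2 FC was -0.15 without replicate 3. In pGRHL2 libraries 1 to 4, ORM2 was 11.09, 11.25, 10.79 and 11.06, while in pcDNA3 libraries 1 to 4 it was 11.12, 10.96, 11.42 and 11.15. ORM2 had the same signs as ORM1 in all 4 pairs (-0.021, 0.29, -0.63 and -0.090), and its groups overlapped as well. Its log2 FC was -0.11 ± 0.38 (SD over 4 pairs), the 95% confidence interval was -0.39 to 0.16 and the adjusted p by limma was 0.724. Without replicate 3 the log2 FC of ORM2 was 0.058, so that its direction rested on that pair. When the linear values of both genes were summed, which does not restore dropped reads, the log2 FC was -0.25 with an adjusted p by limma of 0.324. The nearest gene to ORM1 by its pair differences was ORM2 (root mean square distance of 0.23), while that to ORM2 was APOA1 (0.16), the main protein of high-density lipoprotein.

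**Figure D3:**
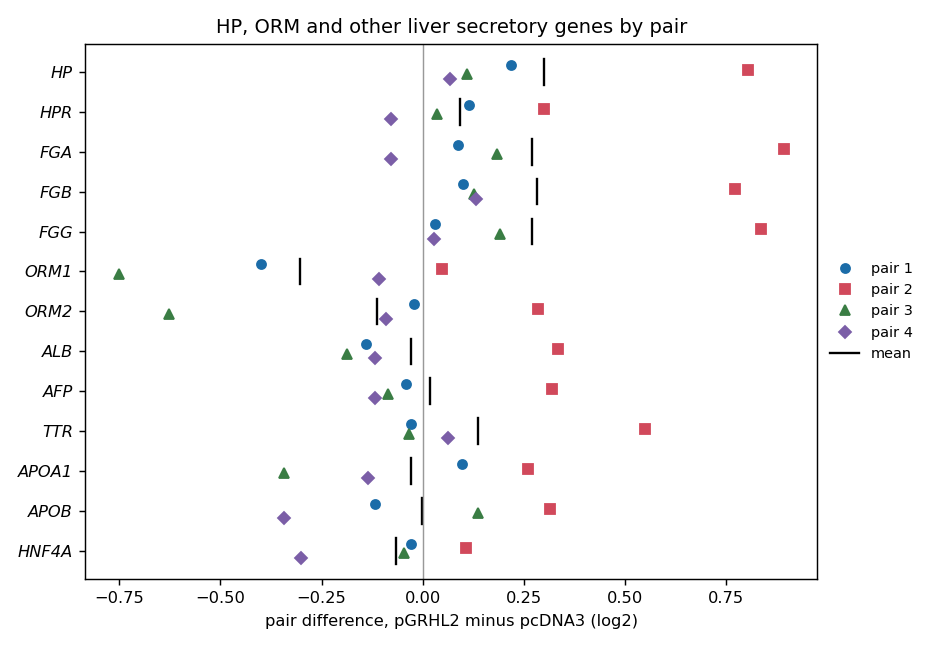
Pair differences (pGRHL2 minus pcDNA3, log2) of HP, HPR, the fibrinogen genes, ORM1, ORM2 and hepatocyte markers, 1 point per pair and a bar at the mean. Pair 2 is above 0 for every gene shown, at 0.77 to 0.89 for the fibrinogen genes and 0.80 for HP, and pair 3 lies farthest to the left for ORM1 and ORM2, at -0.75 and -0.63.

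SAA2 and SAA4 encode serum amyloid A proteins, which travel on high-density lipoprotein. SAA2 is strongly inducible in inflammation and SAA4 is produced constitutively. Both lie on the minus strand of chromosome 11, SAA4 from 18231355 to 18236802 and SAA2 from 18239223 to 18248668, and a read-through gene, SAA2-SAA4, spans them. The annotation (GENCODE release 44) places 75.56% of the exon bases of SAA4 and 14.18% of those of SAA2 in exons of other genes, SAA2-SAA4 above all. The coding sequence of SAA2 was 96.99% identical to that of SAA1 and 68.97% identical to that of SAA4. In the latter pair, of 366 and 390 bases, gaps were counted as differences. Reads were counted in union mode, which sets aside those over exons of 2 genes of the annotation used, so that the values of SAA2 and SAA4 are uncertain.

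**Figure D4:**
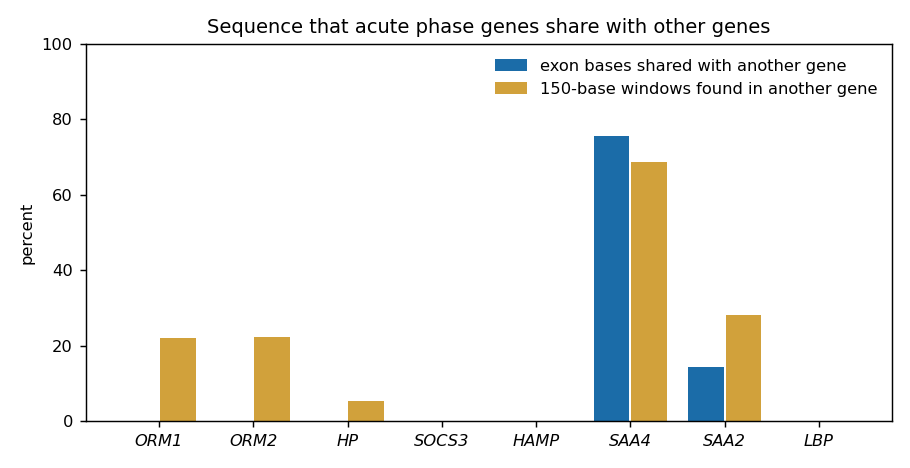
Percent of exon bases that lie in exons of another gene, and percent of 150-base transcript windows that are also found in transcripts of another gene, for the 8 acute phase genes. SAA4 shares most (75.56% and 68.61%), ORM1 and ORM2 share windows only, and SOCS3, HAMP and LBP share none.

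SAA2 was 1.71 in each of the 4 pGRHL2 libraries and 1.68 in each of the 4 pcDNA3 libraries. It was higher in pGRHL2 in 4 of 4 pairs, by 0.039, 0.040, 0.038 and 0.031. The log2 FC was 0.037 ± 0.0043 (SD over 4 pairs), the 95% confidence interval was 0.0013 to 0.072 and the adjusted p by limma was 0.295. The direction was thus the same in every pair, but the difference amounted to a fold of 1.03 in a gene near the bottom of the table. Without the replicate block limma called SAA2 (adjusted p of 0.0060, the lowest of a range that reached 0.618 over all settings run), in a fit that counts each mirrored difference as if its 2 libraries were independent. In pGRHL2 libraries 1 to 4, SAA4 was 3.20, 3.19, 3.22 and 3.21, while in pcDNA3 libraries 1 to 4 it was 3.18, 3.19, 3.16 and 3.17. Its groups overlapped by pair 2, and its log2 FC was 0.029 ± 0.027 (SD over 4 pairs), with a 95% confidence interval of -0.027 to 0.084 and an adjusted p by limma of 0.643.

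LBP, the lipopolysaccharide-binding protein that hands bacterial endotoxin to CD14, lies on the plus strand of chromosome 20 from 38346482 to 38377013. It was the weakest of the 8 genes, with 0.64, 0.61, 0.60 and 0.64 in pGRHL2 libraries 1 to 4 and 0.58, 0.60, 0.61 and 0.57 in pcDNA3 libraries 1 to 4. The groups overlapped, pairs 1 and 4 being higher in pGRHL2 by 0.058 and 0.068 and pairs 2 and 3 differing by 0.013 and -0.0073. Its log2 FC was 0.033 ± 0.036 (SD over 4 pairs), with a 95% confidence interval of -0.0025 to 0.068 and an adjusted p by limma of 0.353. SAA2, SAA4 and LBP therefore had the narrowest intervals of the 8 genes together with the lowest levels. Rlog shrinks differences most where reads are few, and its part in these intervals was not tested.

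HAMP lies on the plus strand of chromosome 19 from 35280716 to 35285143 and encodes hepcidin, which lowers plasma iron by removing the iron exporter ferroportin from cells. In pGRHL2 libraries 1 to 4, HAMP was 4.28, 4.28, 4.19 and 4.23, while in pcDNA3 libraries 1 to 4 it was 4.20, 4.20, 4.29 and 4.25. The groups overlapped, with pairs 1 and 2 higher in pGRHL2 and pairs 3 and 4 lower. The log2 FC was 0.013 ± 0.086 (SD over 4 pairs), the 95% confidence interval was -0.075 to 0.10 and the adjusted p by limma was 0.922. The sign of the mean was not stable, since it was negative after quantile normalization, without replicate 1 and without replicate 2.

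The genes that control hepcidin were read from a list of 20 ligands, receptors, SMAD factors and iron proteins, of which 19 were in the table. One of the 19 was called higher and 1 lower, compared with 1.69% and 0.501% of all genes. BMP6, a ligand that induces HAMP when iron is plentiful, was 5.41, 5.46, 5.50 and 5.54 in pGRHL2 libraries 1 to 4 and 5.24, 5.20, 5.15 and 5.11 in pcDNA3 libraries 1 to 4. The groups did not overlap, and BMP6 rose by a log2 FC of 0.30 ± 0.11 (SD over 4 pairs; adjusted p = 0.022, limma). SMAD7, an inhibitory SMAD and feedback target of BMP and TGF-beta signalling, was 9.32, 9.28, 9.31 and 9.42 in pGRHL2 libraries 1 to 4 and 9.70, 9.74, 9.71 and 9.60 in pcDNA3 libraries 1 to 4. Its groups did not overlap either, and it fell by a log2 FC of -0.35 ± 0.12 (SD over 4 pairs; adjusted p = 0.030, limma). BMP6 lost its call when any one replicate was left out (adjusted p between 0.052 and 0.104 by limma), and SMAD7 lost it without replicate 1, 2 or 3 (0.111 to 0.172). The median log2 FC of the 19 genes was -0.0089. HFE, which links transferrin to hepcidin, was higher in 4 of 4 pairs, by 0.20 ± 0.14 on average, without being called (adjusted p = 0.148, limma), and the ferritin heavy chain gene FTH1 had one of -0.19 ± 0.34, with -0.67 in pair 3 (adjusted p = 0.466, limma). In pair 3, FTH1 thus differed in the direction of ORM1 and ORM2.

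SOCS3 lies on the minus strand of chromosome 17 from 78356778 to 78360077 and shares no exon base with another annotated gene. In pGRHL2 libraries 1 to 4, SOCS3 was 5.28, 5.23, 5.23 and 5.29, while in pcDNA3 libraries 1 to 4 it was 5.34, 5.39, 5.39 and 5.33. Every pGRHL2 library was below every pcDNA3 library, by 0.067, 0.163, 0.162 and 0.048 in pairs 1 to 4. The log2 FC was -0.11 ± 0.061 (SD over 4 pairs), a fold of 0.927, with a 95% confidence interval of -0.20 to -0.017 and an adjusted p by limma of 0.231. Without the replicate block limma called SOCS3 (adjusted p of 0.013, again the lowest over all settings run, which reached 0.516), as it did SAA2. SOCS1, a cytokine-induced JAK inhibitor of the same family, had a log2 FC of -0.11 ± 0.060, lower in 4 of 4 pairs, and was not called either (adjusted p = 0.206, limma). By root mean square distance over the 4 pair differences, the gene nearest to SOCS3 was RELA (0.084), that to HAMP was MYD88 (0.061), that to LBP was TSC22D3 (0.067), that to SAA2 was FKBP5 (0.054) and that to SAA4 was BMPR2 (0.054). These 5 neighbours had log2 FC between -0.038 and 0.079.

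The promoter of HAMP, a STAT3 target, held the STAT motif TTCNNNGAA in the 250 bases before the start of the MANE Select transcript, a window in which 2 of the 8 acute phase genes and 5.11% of 14159 genes had it. The 100 bases around the match in HAMP are shown with the motif in capitals (hg38, chr19:35282390-35282489, plus strand). The motif reads the same on either strand, and its first base lay 93 bases before the start of HAMP.
HAMP: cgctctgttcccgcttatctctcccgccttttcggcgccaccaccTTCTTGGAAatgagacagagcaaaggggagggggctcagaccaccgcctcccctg
The core of the Grainyhead motif, AACNNGTT, also reads the same on either strand. It was found in that window in 1.98% of the 14159 genes and in 0 of the 8 acute phase genes. With 8 genes, 0 does not stand apart from that share. A match or its absence in these letters describes the window alone.

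The receptors and factors upstream of SOCS3 were compared next. Of 17 genes of the IL-6 receptor and STAT3 pathway, 15 were in the table. Among them, 0 were called higher or lower, compared with 1.69% and 0.501% of all genes. An unadjusted limma p under 0.05 was found for 1 of the 15, SOCS1, compared with 16.0% of all genes. The median log2 FC of the 15 genes was -0.034. IL6R and IL6ST, the subunits of the interleukin-6 receptor, had log2 FC of -0.085 ± 0.23 and -0.035 ± 0.057, JAK1 had -0.034 ± 0.15 and STAT3 itself had 0.020 ± 0.076 (SD over 4 pairs). Each of these 4 values was smaller than the SD of its pairs. The receptor genes LIFR and OSMR had log2 FC of -0.12 ± 0.10 and 0.058 ± 0.099, and SOCS2 had -0.19 ± 0.38, with limma adjusted p between 0.384 and 0.712. LIFR was lower in 4 of 4 pairs, while OSMR and SOCS2 had pairs of both directions.

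Other STAT3 targets included called genes. Of the 5 listed (BCL3, PIM1, JUNB, IRF1 and MCL1), 3 were called lower and 0 higher, compared with 0.501% and 1.69% of all genes. This list was chosen with earlier results of these data known, so its share is not a test of STAT3 targets. BCL3, an IkB-like nuclear partner of NF-kB, was 8.81, 8.71, 8.79 and 8.86 in pGRHL2 libraries 1 to 4 and 9.38, 9.47, 9.40 and 9.32 in pcDNA3 libraries 1 to 4. The groups were well apart, and BCL3 fell by a log2 FC of -0.60 ± 0.12 (SD over 4 pairs; adjusted p = 0.0037, limma), a fold of 0.659. PIM1, a serine/threonine kinase that promotes survival, fell by a log2 FC of -0.37 ± 0.18 (adjusted p = 0.043, limma). JUNB, an AP-1 subunit, fell by -0.39 ± 0.20 (adjusted p = 0.042, limma). Both were lower in 4 of 4 pairs, but PIM1 lost its call when any one replicate was left out (adjusted p between 0.052 and 0.158 by limma) and JUNB when replicate 1, 2 or 3 was (0.145 to 0.205). JUNB also shares 14.15% of its exon bases with another gene, HOOK2, as BMP6 shares 5.6% with TXNDC5, and counting was not stranded. IRF1, an interferon-induced factor, had a log2 FC of 0.14 ± 0.15 (adjusted p = 0.363, limma), and MCL1, an inhibitor of apoptosis, had one of -0.044 ± 0.17 and was not called. These 5 genes respond to many signals besides STAT3, and SOCS3 (log2 FC of -0.11) was lower in 4 of 4 pairs as the 3 called genes were.

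**Figure D5:**
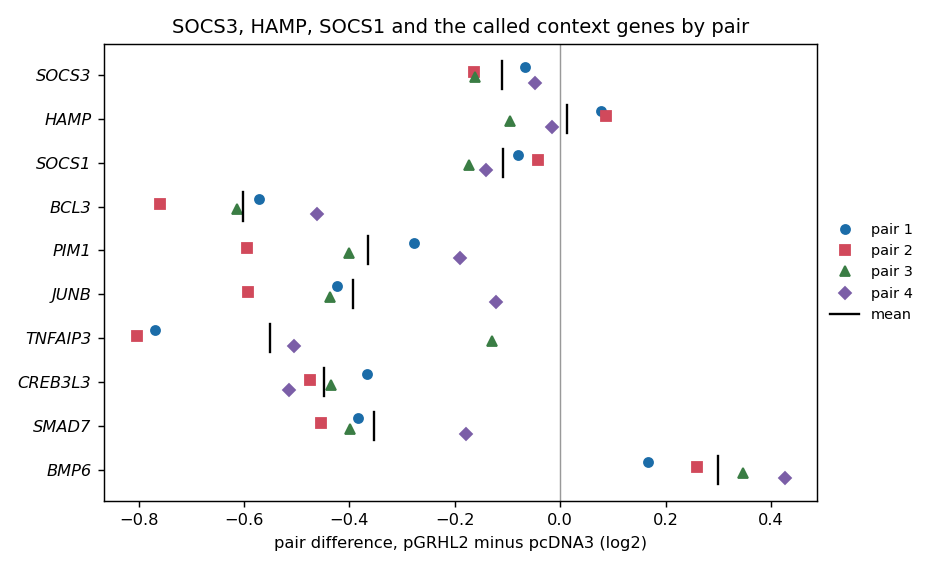
Pair differences (pGRHL2 minus pcDNA3, log2) of SOCS3, HAMP, SOCS1 and the 7 called genes of the lists, 1 point per pair and a bar at the mean. All 4 pairs of SOCS3, SOCS1 and the 6 called genes that fell lie to the left of 0, those of BMP6 lie to the right, and HAMP has 2 pairs on each side.

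Within the IL-1 and NF-kB pathway, 15 of 16 listed genes were in the table. Of these, 1 was called lower and 0 higher, compared with 0.501% and 1.69% of all genes. That gene was TNFAIP3, a ubiquitin-editing inhibitor of NF-kB and one of its targets, with 9.90, 9.88, 10.22 and 10.03 in pGRHL2 libraries 1 to 4 and 10.67, 10.69, 10.35 and 10.54 in pcDNA3 libraries 1 to 4. The groups did not overlap, although pair 3 differed by only -0.13, and TNFAIP3 fell by a log2 FC of -0.55 ± 0.31 (SD over 4 pairs; adjusted p = 0.035, limma). Its call was lost without replicate 1, 2 or 4 (adjusted p between 0.096 and 0.194 by limma). The interleukin-1 receptor gene IL1R1 was higher in 4 of 4 pairs, with a log2 FC of 0.24 ± 0.079, but was not called (adjusted p = 0.072, limma). The receptor-associated kinase gene IRAK1 had a log2 FC of 0.12 ± 0.15 (adjusted p = 0.455, limma), and the chemokine gene CXCL8, an NF-kB target, had one of -0.20 ± 0.39 with pair 4 in the opposite direction to the others (0.511). Without replicate 4 the log2 FC of CXCL8 was -0.39 and it was called lower (adjusted p = 0.034, limma), the lowest of a range that reached 0.840 over all settings run. The median log2 FC of the 15 genes was -0.038.

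Among 8 transcription factors that drive acute phase genes, 1 was called lower and 0 higher, compared with 0.501% and 1.69% of all genes. CREB3L3 (CREBH), a membrane-bound liver factor that is cleaved upon endoplasmic reticulum stress and activates HAMP and CRP, was 7.37, 7.31, 7.33 and 7.29 in pGRHL2 libraries 1 to 4 and 7.73, 7.79, 7.77 and 7.81 in pcDNA3 libraries 1 to 4. The groups did not overlap, and CREB3L3 fell by a log2 FC of -0.45 ± 0.063 (SD over 4 pairs; adjusted p = 0.0054, limma), a fold of 0.733. CREB3L3 and BCL3 were the 2 genes of these lists that kept their call whichever replicate was left out. NR3C1, which encodes the glucocorticoid receptor, was lower in 4 of 4 pairs with a log2 FC of -0.22 ± 0.062, short of the threshold (adjusted p = 0.090, limma). CEBPA and CEBPB, factors that bind many acute phase promoters, had log2 FC of 0.020 ± 0.25 and 0.035 ± 0.20 (adjusted p by limma, 0.950 and 0.895), with 2 pairs in each direction.

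Since all cultures contained dexamethasone, glucocorticoid targets were compared as well, and 5 of 6 listed were in the table. Of these, 0 were called higher or lower, compared with 1.69% and 0.501% of all genes. An unadjusted limma p under 0.05 was found for 1 of the 5, compared with 16.0% of all genes. PER1, a clock gene, was higher in 4 of 4 pairs with a log2 FC of 0.18 ± 0.098 (adjusted p = 0.166, limma). TSC22D3 and KLF9, transcription factors induced by the receptor, had log2 FC of 0.079 ± 0.065 and 0.090 ± 0.13, and the chaperone gene FKBP5 had 0.013 ± 0.060. The median log2 FC of the 5 targets was 0.079.

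Other positive acute phase genes were represented by 15 of 17 listed. Of these, 0 were called higher or lower, compared with 1.69% and 0.501% of all genes. An unadjusted limma p under 0.05 was found for 2 of the 15, compared with 16.0% of all genes. In pair 2, 14 of the 15 were higher in pGRHL2, with a median difference of 0.28, whereas the medians of pairs 1, 3 and 4 were 0.030, 0.10 and -0.0035. A2M, a broad protease inhibitor, had a log2 FC of -0.0038 ± 0.23 (adjusted p = 0.990, limma). Of the 9 negative acute phase genes, whose products fall in plasma during inflammation, 6 were higher in pGRHL2 in pair 2. ALB, TTR and APOA1 among them were already counted as hepatocyte markers. The median pair 2 difference of the 9 genes was 0.23, while that of all genes was 0.0059. Among these 9, 0 were called and 1, AHSG, had an unadjusted limma p under 0.05, against the same shares of all genes. AHSG, which encodes fetuin-A, was higher in 4 of 4 pairs with a log2 FC of 0.14 ± 0.080 (adjusted p = 0.156, limma). The carrier genes TTR and RBP4 had log2 FC of 0.14 ± 0.28 and -0.094 ± 0.14, and the corticosteroid-binding globulin gene SERPINA6 had -0.13 ± 0.76, its pairs running from -1.15 to 0.68.

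Over all these pathway and acute phase genes other than the 8, 92 of 103 were in the table, of which 1 was called higher and 6 lower, compared with 1.69% and 0.501% of all genes. An unadjusted limma p under 0.05 was found for 17 of the 92, compared with 16.0% of all genes, and the groups did not overlap in 24 of the 92, compared with 24.0%. Their median log2 FC was -0.0091, and these lists were chosen with earlier results of these data known. The called genes were the signalling genes BCL3, PIM1, JUNB, TNFAIP3, CREB3L3, SMAD7 and BMP6. The other positive and the negative acute phase lists, both of plasma proteins, held 0 called genes. With 15 and 9 genes in the table, these 2 lists are too small for 0 calls to stand apart from the shares of all genes.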

How the data were processed

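The deposited values are log2 values per gene symbol. According to the methods and labels, the authors aligned reads to hg38 with HISAT2 (2.2.1 in the submitters' processing notes), counted them over exons with HTSeq 0.9.1 (union mode, no strand, minimum quality of 10), removed genes with fewer than 10 reads, and divided rlog values of DESeq2 1.40.2 by mean transcript length. The removal of replicate means seen in the values is not described there. Read counts were not used here, so depth is unknown and no counting error was computed. One value had a stray character, which was dropped, and no column came from elsewhere.

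Groups and replicate numbers came from the sample titles, and the replicates are described as independent. All 17561 genes were fitted with limma 3.58.1 in R 4.3.3 (lmFit, eBayes with trend), with the replicate number as a block (3 residual degrees of freedom), Benjamini-Hochberg adjustment and a threshold of 0.05. Same-numbered libraries mirror each other, which fixes the pairing from the values and leaves a correlation check void. The fit was tested on simulated data. The members and the gene lists were chosen with earlier results of these data known. Named genes were all members, GRHL2, HPR, every called list gene and, per list, the 2 largest and 2 smallest log2 FC at a mean of at least 5. A few items of this rule are not reported here. FGA, SOCS1, IL6R, IL6ST, JAK1 and STAT3 were added after their values were seen. Likeness was the root mean square distance over 4 pair differences. Positions, exon overlap, sequences and motifs came from hg38 and GENCODE release 44, which held 99.863% of the symbols. No alternate-contig copy of a member was found (minimap2 2.31-r1302, requiring 98% identity across 50% of the transcript). Alternatives were the fit without block, without trend, robust or weighted, 2 scalings, 2 level filters, a threshold of 0.01 and each replicate left out. Summing near-identical copies was chosen after seeing the data.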

Additional observations from a re-analysis of the deposited data

Results flagged for a closer look

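Because libraries of a pair mirror each other, the 4 pair differences were examined for one that lay far from the rest of its group. The limit was a ratio of gap to range above Dixon's 95% critical value for 4 values. Only genes picked by the naming rule were examined, so ALB and FGA, among others, were not. This was the case for 5 of 43 results, and chance gives about 1 in 20.

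Among the acute phase genes it was SAA2, whose pair 4 gave 0.03052 while the median of the other pairs was 0.039, a gap that is tiny in absolute terms. For FGB, pair 2 gave 0.7713 and the other pairs a median of 0.13. For TTR, pair 2 gave 0.5481 and the others -0.028. Both lie in the pair in which HP and 6 of 6 hepatocyte markers were higher in pGRHL2. For NR3C1, pair 1 gave -0.3111 and the others -0.19. For CXCL8, pair 4 gave 0.3887 and the others -0.37, so that CXCL8 was the one gene of the 5 whose outlying pair turned the direction of the other 3. HP, with 0.80 in pair 2, did not pass the limit, since its other pairs were more spread.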

How the results depend on the processing

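Direction and call held in 59 of 62 values of single acute phase genes under settings other than leaving out replicates. They also held in 254 of 272 values of the other genes picked by the naming rule. SAA2 and SOCS3 gained a call without the replicate block, where 1 acute phase gene was higher and 1 lower, and 0 acute phase genes were called under any other setting run. The log2 FC of HAMP was -0.0029 after quantile normalization, and that of SERPINA6 was 0.047 with arrayWeights. The median of the acute phase genes was -0.11 with a mean of at least 5, which leaves 4 of them.

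Over all genes, the higher and lower counts were 1821 and 1427 with no replicate block, 4 and 2 without trend, 503 and 221 with arrayWeights, 184 and 57 after quantile normalization, and 77 and 10 at an adjusted p under 0.01. With a mean of at least 5, 63 genes were higher. The counts of pathway and other acute phase genes were 8 higher and 11 lower with no replicate block, 0 and 0 without trend, 2 higher with arrayWeights and 3 lower after quantile normalization. All 7 calls among these genes, BCL3 (limma adjusted p of 0.067) and CREB3L3 (0.055) included, were thus lost when the variance was not allowed to follow the level. PIM1, JUNB and TNFAIP3 also lost theirs after quantile normalization (0.071, 0.068 and 0.056), and IL1R1 and NR3C1 gained one with arrayWeights (0.039 and 0.047). The scalings moved the median of all genes by -0.0043 and -0.0072.

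Leaving out each replicate in turn gave 79 to 156 higher and 8 to 68 lower genes in the table, 0 higher and 2 to 5 lower pathway genes, and a median acute phase log2 FC of 0.0081 to 0.041. The log2 FC that changed sign in these fits ranged from -0.25 to 0.058 for ORM2, -0.011 to 0.049 for HAMP, -0.10 to 0.020 for MCL1, -0.10 to 0.084 for CEBPA, -0.024 to 0.12 for CEBPB, -0.013 to 0.035 for FKBP5, -0.090 to 0.074 for A2M, -0.40 to 0.21 for SERPINA6 and -0.00029 to 0.19 for TTR. With 3 pairs fewer degrees of freedom remain, and the other causes were not tested. The depth of the libraries is unknown, so the smallest difference that weakly represented genes such as LBP and SAA2 could show is unknown as well.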
